A study of Mus musculus with 6 samples.

Results

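The cytosolic ribosomal protein genes encode the protein subunits of the ribosome, and they were compared between livers of wild-type mice (3 samples) and livers of SIRT7 knockout mice (3 samples). Each liver RNA was hybridised to its own 1-colour Affymetrix array. The labels give the Sirt7 allele as wild-type or knock-out and say that both groups were treated alike. How the knockout was made, the strain, age, sex and diet are not given in the labels. Members were all genes with a single symbol in the platform annotation that begins with Rps, Rpl or Rplp and a digit. S6 kinases, pseudogenes and names ending in l, or in l and a digit, for "like" were left out. This gave 41 of the 12393 genes with a single symbol, 19 of the small subunit (Rps) and 22 of the large subunit (Rpl and Rplp). They were read by 89 probe sets (groups of short probes against 1 transcript region), and the brightest probe set, by its mean of the 6 arrays, stood for each gene. The genes Rpl37 (mean log2 value 3.30) and Rpl39 (3.45) stayed under the minimum mean of 4, which left 39 tested members among 8343 tested genes. A further 102 probe sets listed a ribosomal protein symbol beside other symbols and were not assigned to a gene. They held 29 symbols of the family that had no probe set with a single symbol, so these genes were not read.

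The small subunit of the ribosome decodes the messenger RNA and the large subunit joins the amino acids. Messenger RNAs of ribosomal proteins begin with a pyrimidine tract, the TOP motif, through which mTORC1 signalling and the protein LARP1 control their translation together. Hepatocytes make large amounts of plasma protein and hold many ribosomes. SIRT7, a nuclear sirtuin enriched in nucleoli, is known to be brought to some ribosomal protein promoters by the ETS factor ELK4 and by MYC, and Rps20, Rps7 and Rps14 are among its reported promoter targets. The study is titled for SIRT7 and MYC in tumours, and the comparison asks whether messenger RNAs of this family differ in livers without SIRT7.

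Windows around the start sites were searched for sequence elements known from this family, each of which was found in some members only. RefSeq promoter windows of assembly GRCm38.p6, from 250 bases before to 50 after the annotated start, were found for 36 of the 41 members, 42 windows in all. On the coding strand, the base at the annotated start was a C followed by at least 4 pyrimidines in 8 of 42 member windows (19%), against 2.51% of all 32851 windows. Within 10 bases of the start such a run began in 24 windows (57.1%, against 30.7% of all windows). Of the 8 genes with the run at the start itself, 6 have it as the first pyrimidine run near the start. These 6 are printed below with 20 bases before and 10 bases from the start on, with that run in capitals, because the TOP motif is the known control element of this family. The other 2 are Rps18 and Rps27.
Rps6, chr4:86857358-86857387, minus strand: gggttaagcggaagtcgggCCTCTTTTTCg
Rps10, chr17:27635235-27635264, minus strand: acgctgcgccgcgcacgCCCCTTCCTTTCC
Rpl35, chr2:39005122-39005151, minus strand: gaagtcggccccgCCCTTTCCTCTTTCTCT
Rpl38, chr11:114668560-114668589, plus strand: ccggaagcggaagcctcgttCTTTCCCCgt
Rplp2, chr7:141447631-141447660, plus strand: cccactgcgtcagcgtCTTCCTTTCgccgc
Rpl14, chr9:120571497-120571526, plus strand: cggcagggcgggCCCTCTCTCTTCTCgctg
All 6 of these genes were tested on the arrays. Their knockout minus wild-type differences, given below, ran from -0.34 for Rpl38 to 0.45 for Rps6, on both sides of 0.

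The ETS motif CCGGAAGT, which ELK4 and its relatives bind, was searched on both strands and lay in 8 of 42 member windows (19%), against 3.89% of all windows. The windows below are read on the coding strand, with the motif in capitals (as its complement ACTTCCGG in Rpl19), and are shown because SIRT7 is known to reach ribosomal protein promoters through ELK4.
Rps6, chr4:86857440-86857469, minus strand: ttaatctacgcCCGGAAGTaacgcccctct
Rps18, chr17:33955722-33955751, minus strand: agaagcaatttCCGGAAGTggacctccggg
Rps18, chr17:33955804-33955833, minus strand: agaaggccgaaCCGGAAGTtatagctccgg
Rps25, chr9:44407630-44407659, plus strand: cacccattgccCCGGAAGTactctctcgag
Rpl41, chr10:128549206-128549235, minus strand: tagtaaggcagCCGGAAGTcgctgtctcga
Rpl37, chr15:5116579-5116608, plus strand: accaagacccgCCGGAAGTagtttcctggg
Rpl19, chr11:98026659-98026688, plus strand: gacttagcgtgACTTCCGGctacccagagg
Rpl35 and Rpl11 also held 1 match each. The MYC E-box CACGTG lay in 5 member windows (11.9%, against 7.15% of all) and the YY1 motif GCCATNTT, searched on both strands, in 6 (14.3%, against 6.05%). The 7 tested members with the ETS motif had a median difference of 0.09 and the 27 without it -0.15. This split was not particular to the ETS motif. With and without the YY1 motif the medians were 0.11 and -0.15, and with and without the E-box 0.04 and -0.14. For the pyrimidine run at the start they were 0.10 and -0.15. For a run within 10 bases of the start the order was reversed (-0.15 and -0.03). These are descriptions of where letters occur, with no test. The Rps7 window held none of the 3 factor motifs, and Rps20 and Rps14 had no window in the table.

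Sirt7 itself was read first as a check of the labels. Wild-type livers gave log2 values of 9.85, 9.80 and 9.57, and knockout livers gave 2.38, 3.10 and 2.86. The knockout values lie under the minimum mean of 4, where signal was not told from background, so that Sirt7 fell by at least 5.74 log2 units, taken against that minimum. On the measured values limma gave -6.96 (SE 0.23, adjusted p = 3.99e-06). Array medians lay between 5.69 and 5.77, and the lowest correlation between 2 arrays across tested genes was 0.949. Of 10 hepatocyte markers 7 had a probe set with a single symbol, all at a mean of at least 4. Their summed log2 level was 15.71 to 15.90 in wild type and 15.57 to 15.98 in knockout. Alb was at 12.88 ± 0.07 and 12.65 ± 0.39 (SD, n = 3 each). For the 4 proliferation markers with such a probe set, the summed level was 7.82 to 9.51 in wild type and 9.96 to 10.38 in knockout. Wild-type replicate 3 was closest to the knockouts. All 4 had higher means in the knockout and an unadjusted p under 0.05, and limma called 0 of them. Their part in the ribosomal protein values was not tested. Marker lists of erythroid, lymphocyte, macrophage, stellate, endothelial, cholangiocyte and acinar cells held 0 called genes. At an unadjusted p under 0.05 they held Slc4a1 of red cells (1.32, limma adjusted p = 0.725) and the macrophage gene Cd68 (0.50, limma adjusted p = 0.769). The bile duct gene Sox9 (-0.91, limma adjusted p = 0.746) was also past it. In each of them the groups did not overlap. Their lists held estimates on both sides of 0. Higher and lower ones numbered 1 and 1 for red cells, 3 and 2 for macrophages and 1 and 2 for bile duct. Csf1r of macrophages differed by -0.63 and Krt19 of bile duct by 0.58. The summed macrophage level was 11.32 to 11.47 in wild type and 10.78 to 11.45 in knockout. The part of these cell type markers in the values of the members was not tested either. Whether the replicates are separate mice is not stated, so the p-values describe the scatter of these samples, which may be technical. In whole liver RNA fewer cells of a type and less RNA per cell cannot be told apart.

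With all arrays weighted equally, none of the 39 tested members passed the threshold in livers without SIRT7, and none of their estimates reached 2-fold. A fit with array weights, described further on, called 12 members (30.8%), where it called 21% of all tested genes. Of the 39 tested members, 17 had a higher and 22 a lower mean in knockout livers (56.4% lower, against 54.6% of all tested genes). Differences ran from -0.52 for Rps7 to 0.45 for Rps6, and 38 of 39 were smaller than 0.5 on the log2 scale, as were 87.8% of all tested genes and 95.6% of those with a mean of at least 10. The median difference was 0.004 for the 19 small subunit genes and -0.14 for the 20 large subunit genes, against -0.03 for all tested genes. Limma called 0 members at a Benjamini-Hochberg adjusted p under 0.05 (smallest adjusted p = 0.78), where 0.024% of all tested genes were called. At an unadjusted p under 0.05 there were also 0 members, against 6.46% of all tested genes and 2.55% of those with a mean of at least 10. The 95% interval of the difference stayed inside a 2-fold change in either direction for 37 members. The exceptions were Rps7, whose interval ran from -1.12 to 0.08, and Rps6, from -0.11 to 1.01. Over all 39, the interval reached 0.39 to 0.69 log2 units to either side of the estimate, with a median of 0.48.

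**Figure D1:**
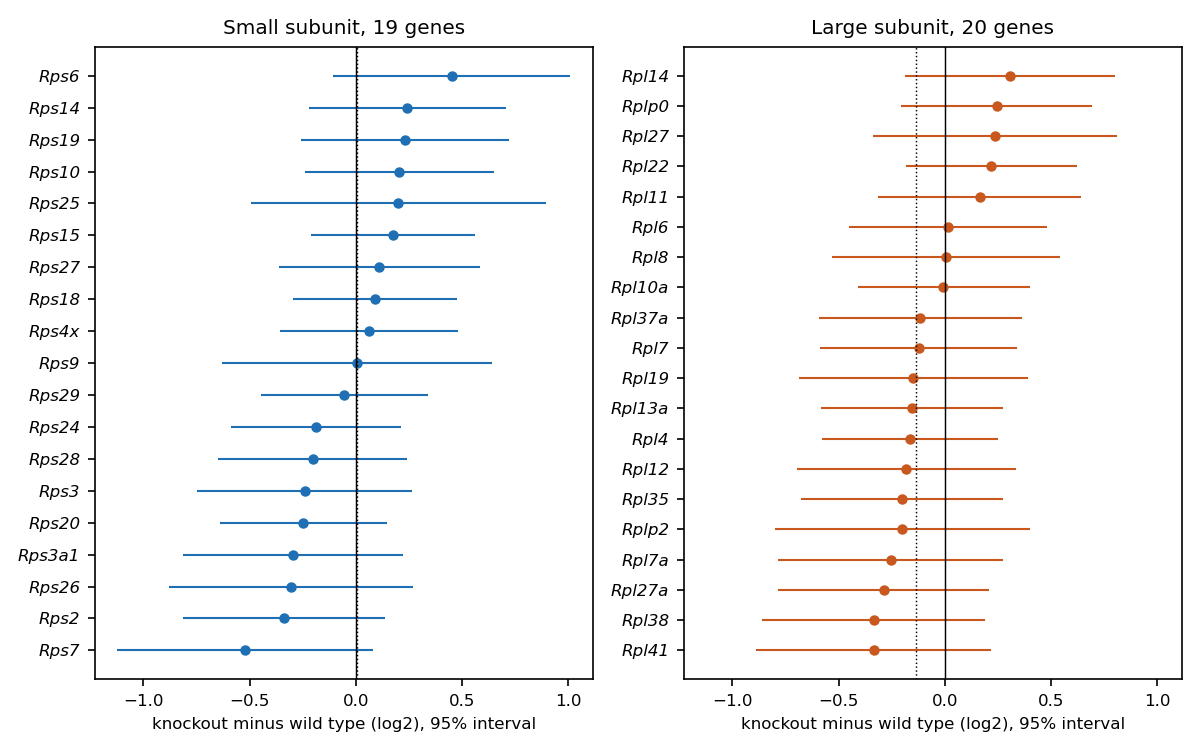
Knockout minus wild-type difference (log2, points) with its 95% interval (lines) for the 19 small and 20 large subunit genes tested; the dotted line is the median of each panel. Every interval includes 0, and the medians are 0.004 and -0.14.

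The groups did not overlap in 4 members (10.3%), against 9.74% of all tested genes. Rps20 was lower in every knockout liver (1 member, where 5.48% of all tested genes were lower without overlap), and Rps15, Rps18 and Rpl22 were higher (3 members, where 4.27% of all tested genes were). Rps15, a protein of the small subunit head, was at 12.50, 12.48 and 12.55 in wild type and 12.69, 12.63 and 12.73 in knockout, a difference of 0.18 (SE 0.17). Rps18, its neighbour in the head, was at 12.28, 12.27 and 12.27 against 12.31, 12.36 and 12.42, a difference of 0.09 (SE 0.17). Both differences were about the size of their standard errors or smaller, and other probe sets of both genes pointed the other way (-0.06 for Rps15 and down to -0.27 for Rps18). Rpl22, an RNA-binding subunit with a close paralog, was at 10.86, 10.86 and 11.07 in wild type and 11.21, 11.10 and 11.14 in knockout, a difference of 0.22 (SE 0.18, limma adjusted p = 0.83). Its second probe set differed by 0.40, so both lay on the same side.

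The reported SIRT7 promoter targets of the family pointed in both directions. Rps7, a small subunit protein whose gene is among those mutated in Diamond-Blackfan anemia, had log2 values of 12.10, 12.53 and 12.42 in wild type and 11.46, 11.67 and 12.35 in knockout. Knockout replicates 1 and 2 lay under every wild-type liver, and knockout replicate 3 lay among them. The difference was -0.52 (SE 0.26, limma adjusted p = 0.78, unadjusted p = 0.0817), the lowest unadjusted p of the family, and the second probe set differed by -0.17. Rps20, which lies in the small subunit head, was at 12.91, 12.95 and 12.99 in wild type and 12.61, 12.71 and 12.80 in knockout. Its difference was -0.25 (SE 0.17, limma adjusted p = 0.80), with no overlap between the groups. A second probe set of like brightness read 12.89, 12.84 and 12.66 against 12.86, 12.88 and 12.64, a difference of -0.003, so that the gap was seen with 1 of the 2 bright probe sets. Both carry the suffix that marks probes shared with other transcripts. Rps14, the platform protein whose loss marks the 5q- syndrome in humans, was at 11.89, 11.91 and 11.85 in wild type and 12.39, 12.16 and 11.82 in knockout. Its difference was 0.24 (SE 0.20, limma adjusted p = 0.83), with knockout replicate 3 under every wild-type liver, and 0.05 on its second probe set.

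**Figure D2:**
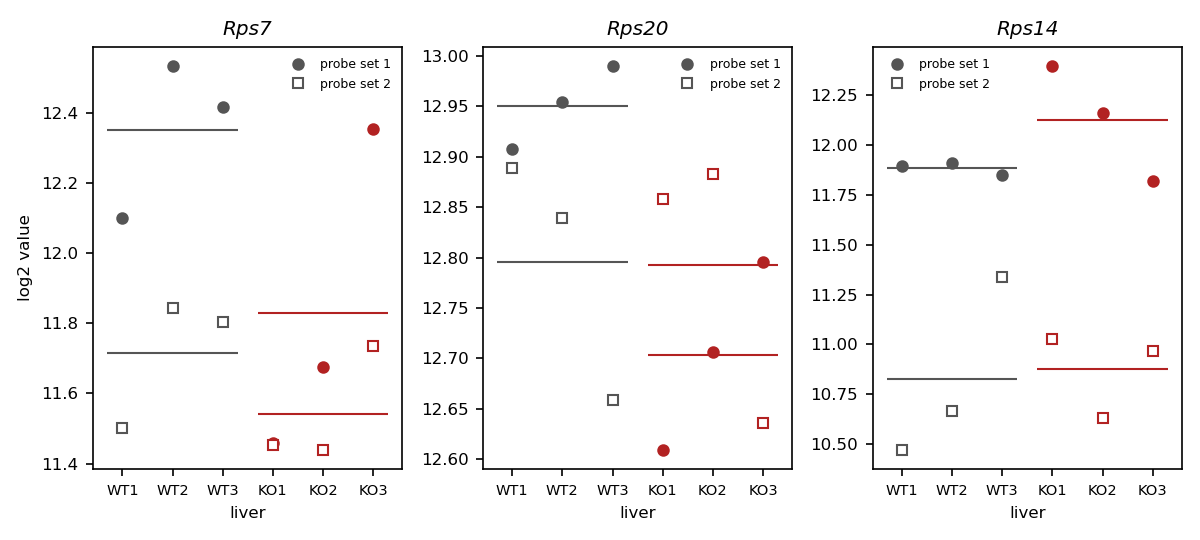
Log2 values of Rps7, Rps20 and Rps14 in each liver (WT, wild type, grey; KO, knockout, red) for the 2 brightest probe sets of each gene (probe set 1, filled; probe set 2, open), with lines at the group means; the vertical axes differ. Knockout replicate 3 lies near the wild-type livers for Rps7, and the second Rps20 probe set does not separate the groups.

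Among other small subunit genes the largest estimate was that of Rps6, the substrate of the S6 kinases. It was at 9.60, 8.90 and 9.45 in wild type and 9.47, 9.995 and 9.84 in knockout, a difference of 0.45 (SE 0.25, limma adjusted p = 0.79). Knockout replicates 2 and 3 lay above every wild-type liver and replicate 1 lay among them. Rps2, at the messenger RNA entry channel, read 11.21, 11.42 and 11.36 against 11.04, 10.68 and 11.25, a difference of -0.34 (SE 0.21, limma adjusted p = 0.80). Knockout replicates 1 and 2 were the lowest of the 6 livers, and replicate 3 lay among the wild-type livers. Rps3, another entry channel protein, differed by -0.24 (SE 0.22) and Rps3a1 by -0.30 (SE 0.23). Rps28 differed by -0.20 (SE 0.20), with -0.20 and -0.25 on its other 2 probe sets.

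Of the genes mutated in Diamond-Blackfan anemia, an inherited failure of red cell production from too few ribosomal subunits, Rps19, Rps10, Rps24, Rps26 and Rpl11 were measured beside Rps7. Rps19, the gene most often affected, was at 11.41, 11.55 and 11.97 in wild type and 11.93, 11.68 and 12.02 in knockout, a difference of 0.23 (SE 0.21, limma adjusted p = 0.84). Rps10 read 12.26, 12.48 and 12.70 against 12.63, 12.61 and 12.83 (0.20, SE 0.20). Its 6 probe sets ran from -0.19 to 0.20, and their mean differed by 0.02. In both genes wild-type replicate 3 sat with the knockout livers. Rps24 read 12.71, 12.59 and 12.79 against 12.48, 12.45 and 12.61 (-0.19, SE 0.18). Its 5 probe sets at a mean of at least 4 ran from -0.19 to 0.27. The highest difference came from the only one of them without the suffix that marks shared probes, and there every knockout liver was higher. Rps26, which lines the messenger RNA exit channel, read 11.74, 11.92 and 11.76 against 11.30, 11.17 and 12.04 (-0.30, SE 0.25). Its knockout livers held both the 2 lowest values and the highest. Rpl11, which with RPL5 and the 5S ribosomal RNA forms a particle that can bind MDM2, read 11.76, 11.88 and 12.11 against 12.11, 11.80 and 12.33 (0.16, SE 0.21). With equal weights none of these 6 genes passed the threshold. With array weights Rps7 and Rps26 did (limma adjusted p = 0.021 and 0.0259), in a fit that called 21% of all tested genes. Rpl5 and Rpl35a had no probe set with a single symbol.

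In the large subunit, the stalk proteins recruit the elongation factors that drive translation. Rplp0, the stalk base, was at 11.53, 11.29 and 11.70 in wild type and 11.85, 11.57 and 11.83 in knockout, a difference of 0.24 (SE 0.20, limma adjusted p = 0.83). Rplp2, which binds to it, was at 11.91, 12.35 and 12.44 against 11.94, 11.65 and 12.50, a difference of -0.20 (SE 0.26, limma adjusted p = 0.88). The groups overlapped in both genes, and without knockout replicate 2 the Rplp2 difference was -0.01. Rplp1 had no probe set with a single symbol.

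Rpl38, known from mouse mutants for its role in the translation of Hox messenger RNAs, had the smallest p of the large subunit genes. It was at 12.72, 12.75 and 13.14 in wild type and 12.60, 12.19 and 12.82 in knockout, a difference of -0.34 (SE 0.23, limma adjusted p = 0.80). Rpl41, which encodes the shortest protein of the ribosome, differed by -0.34 (SE 0.24) and by -0.20 to -0.29 on its other 3 probe sets. Rpl14 stood on the other side, at 7.86, 7.48 and 8.06 against 8.19, 8.23 and 7.89, a difference of 0.31 (SE 0.22, limma adjusted p = 0.80). Rpl27 differed by 0.24 (SE 0.25), with 0.20 and 0.21 on its other probe sets. The other large subunit genes lay between -0.29 (Rpl27a) and 0.01 (Rpl6), except Rpl22, Rplp0 and Rpl11 given above.

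Probe sets differ in how well they bind, so brightness does not rank messenger RNA amounts between genes. By the brightest probe set, 23 members had a mean of at least 12, 11 a mean from 10 to 12 and 5 a mean under 10, on arrays whose highest value was 13.97. The brightest were Rpl35 (12.96, 13.16 and 13.22 in wild type, 12.93, 12.62 and 13.19 in knockout), Rps29 (13.02, 13.03 and 12.92 against 12.87, 12.91 and 13.04) and Rpl4, a protein of the exit tunnel (12.91, 13.01 and 13.02 against 12.74, 12.70 and 13.01). They differed by -0.20, -0.05 and -0.16 with overlapping groups. The dimmest were Rps27 (4.61, 4.86 and 5.14 against 5.08, 4.80 and 5.06, a difference of 0.11), Rpl12 (6.99, 7.05 and 6.70 against 6.78, 6.38 and 7.05, -0.18) and Rpl14. Whether these dim probe sets read the full-length messenger RNA was not tested. The widest spreads within groups belonged to Rps25, Rps9 and Rps7. Rps25, needed for some modes of internal initiation, was at 8.44, 8.32 and 7.43 in wild type and 8.37, 8.54 and 7.89 in knockout, low in replicate 3 of each group.

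Probe sets of 1 gene gave a second reading of each difference. Of the 17 members with more than 1 probe set at a mean of at least 4, 9 had all probe sets on the same side of 0 and 8 did not. The range of differences within a gene ran from 0.03 for Rpl27 to 0.61 for Rpl35. Rpl35 lay between -0.49 on a dim probe set and 0.12 on another, and Rps9 between -0.22 and 0.33, with 0.004 on the brightest. The 38 member probe sets whose names carry an x or s suffix, which marks probes shared with other transcripts, had a median difference of -0.13 (12 higher, 26 lower). The 45 without the suffix had a median of -0.01 (20 higher, 25 lower). With genes read from these alone, the large subunit median was -0.007 in place of -0.14, and with the mean of all probe sets of a gene it was -0.05. The probe sets that listed several symbols, 96 of them at a mean of at least 4, lay nearer the first class, with a median of -0.13 (27 higher, 69 lower). Their differences ran from -0.893 to 1.175, the highest past 2-fold, and they were not fitted. Near-identical pseudogene copies exist for many members, so shared probes make single-gene values uncertain.

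**Figure D3:**
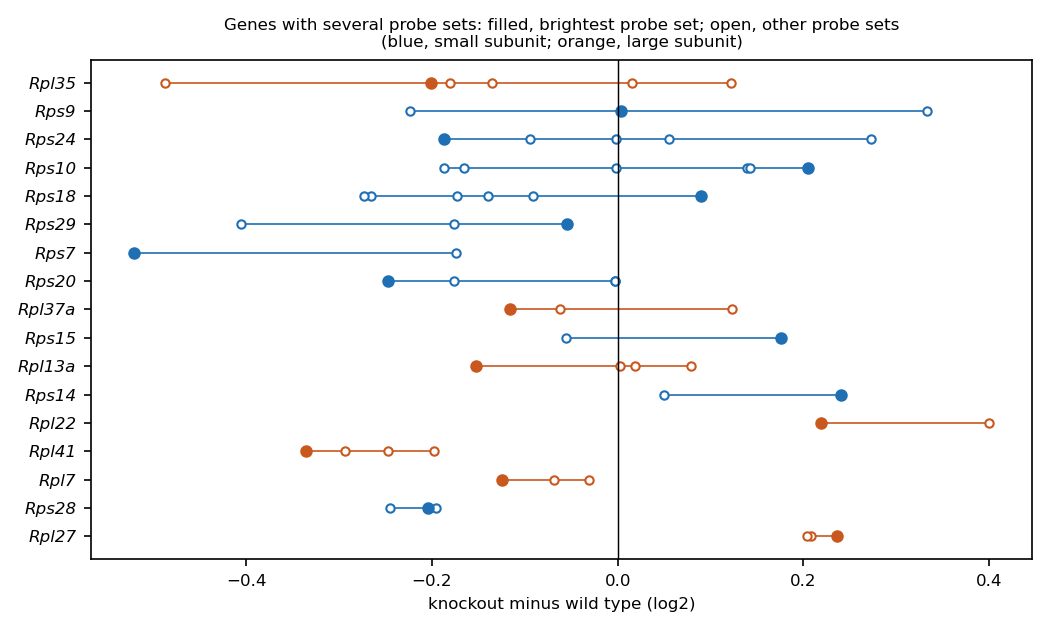
Knockout minus wild-type differences (log2) of every probe set with a mean of at least 4, for the 17 members with several; the filled point is the brightest probe set, blue the small and orange the large subunit. In 8 genes the probe sets lie on both sides of 0.

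The members varied together between livers of the same genotype. The median deviation of the 39 members from their own 6-array means was -0.09, 0.07 and 0.18 in the wild-type livers, in the order of their numbers. In the knockout livers it was -0.08, -0.16 and 0.16. Wild-type replicate 3 and knockout replicate 3 were thus high, and knockout replicate 2 was low. Knockout replicate 3 lay above both other knockout livers in 30 of 39 members (76.9%, against 47.4% of all tested genes and 46.9% of the tested genes with a mean of at least 10). Knockout replicate 2 lay below both others in 30 members (76.9%, against 28.8% and 31.7%). Wild-type replicate 1 lay below both other wild-type livers in 27 members (69.2%, against 35.6% and 40.7%), and wild-type replicate 3 above both in 29 (74.4%, against 37.2% and 37.6%). These counts describe members that share arrays and probes, and no test was made of them.

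**Figure D4:**
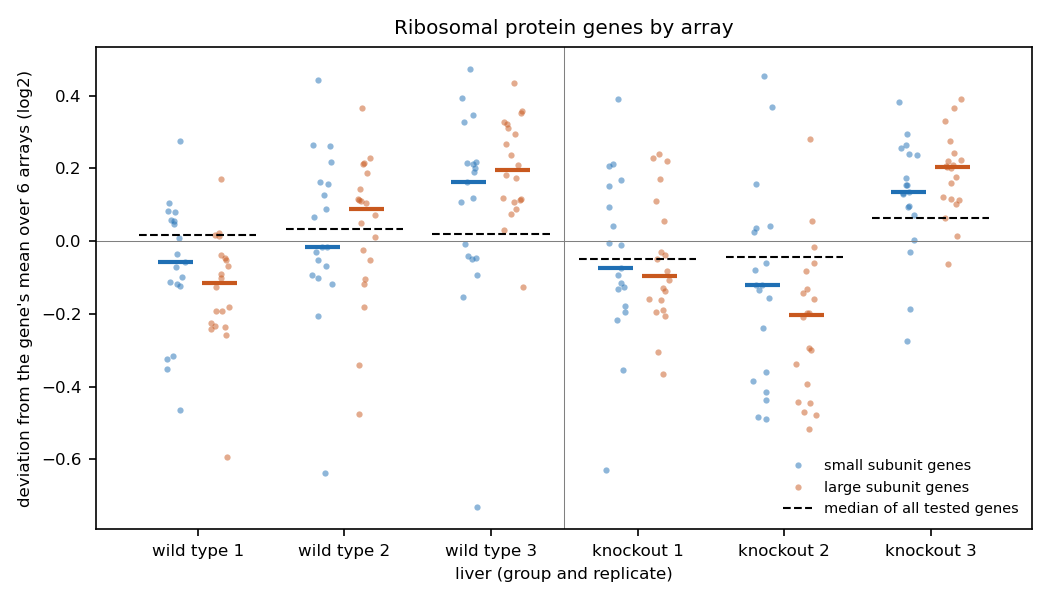
Deviation of each tested member from its own mean over 6 arrays (log2, points; blue, small subunit; orange, large subunit) in each liver, with coloured bars at the subunit medians and dashed lines at the median of all tested genes. Members sit high in wild type 3 and knockout 3 and low in knockout 2.

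Both subunits followed that order. Large subunit medians were -0.11, 0.09 and 0.20 in wild type and -0.09, -0.20 and 0.20 in knockout, and small subunit medians were -0.06, -0.02 and 0.16 against -0.07, -0.12 and 0.13. The highest array was wild-type replicate 3 for 18 members and knockout replicate 3 for 11, and the lowest was knockout replicate 2 for 19. The 99th percentile of all probe sets and the summed hepatocyte markers were also lowest in knockout replicate 2. Both were highest or level with the highest in replicate 3 of each group. The median of tested genes did not follow that order, with the lowest value in knockout replicate 1 (8.399) and the highest in wild-type replicate 2 (8.459). The part of these measures in the order of the members was not tested. The 99th percentile of all probe sets was 12.42, 12.49 and 12.49 in wild type and 12.36, 12.35 and 12.49 in knockout, and the summed hepatocyte markers were 15.71, 15.85 and 15.90 against 15.61, 15.57 and 15.98. After quantile normalization between arrays, an alternative added after seeing the data for this pattern, the member medians were -0.06, 0.002 and 0.10 in wild type and 0, -0.10 and 0.11 in knockout. The 4 orders then held in 23, 27, 22 and 21 members, in the sequence given above. The shares of all tested genes after this step are not given, so these counts stand without a background.

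The medians moved with single arrays, by less than the SD of each subunit's array medians (0.127 for the small, 0.186 for the large). Without 1 array the small subunit median lay between -0.09 and 0.07 and the large subunit median between -0.26 and -0.01. Without knockout replicate 3 the medians were -0.07 and -0.26, and 4 members (Rpl27a, Rps2, Rps26 and Rps7, all lower) had an unadjusted p under 0.05, where 16.6% of all tested genes did and limma called 0 members. Without knockout replicate 1 Rps6 alone, which was higher, had such a p, where 4.42% of all tested genes did. Without knockout replicate 2 the medians were 0.07 and -0.01, and without wild-type replicate 3 they were -0.09 and -0.05. With limma's array weights, which weigh arrays by how closely they follow their group, 12 of 39 members were called (30.8%), 10 lower and 2 higher, where 21% of all tested genes were called. At an unadjusted p under 0.05 it held 17 members, where 39.2% of all tested genes were past that p. A trended, robust prior put Rps7 alone past it, and 6.26% of all tested genes. The weighted fit gave knockout replicate 2 a weight of 6.12 and knockout replicate 3 a weight of 0.31. The largest of the 12 were Rps6 (0.82, SE 0.19, limma adjusted p = 0.0231) and Rps7 (-0.73, SE 0.16, limma adjusted p = 0.021). The largest weight lay on the liver with the lowest ribosomal protein median.

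**Figure D5:**
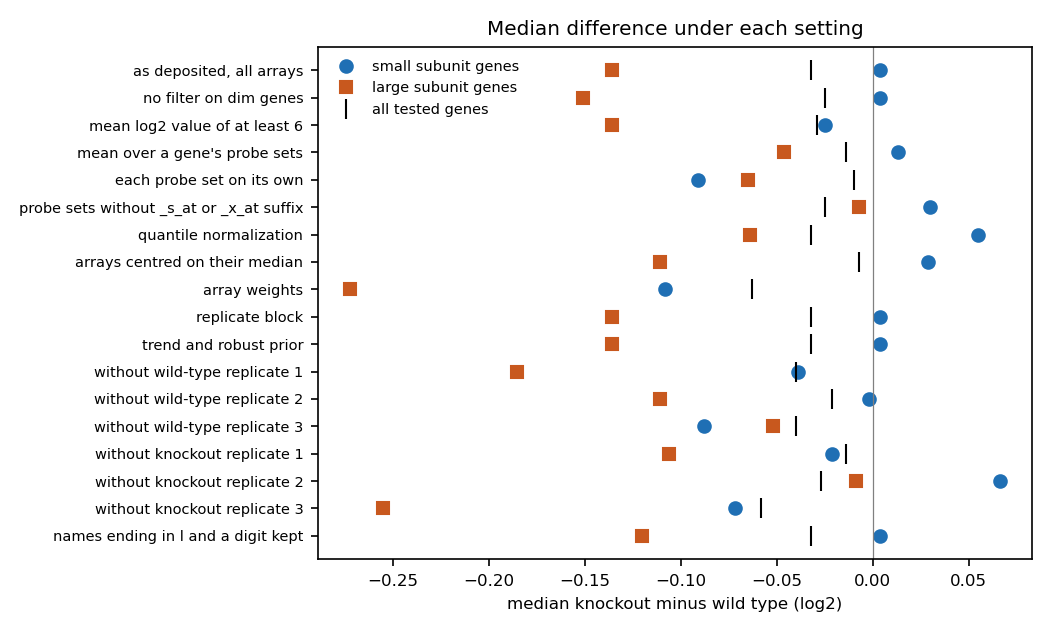
Median knockout minus wild-type difference (log2) of small (blue) and large (orange) subunit genes and of all tested genes (black ticks) under each setting. The large subunit median lies lowest with array weights (-0.27) and without knockout replicate 3 (-0.26).

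Genes that work with the family were read from lists chosen by function. Of 5 ribosomal proteins with other symbols only Rpsa and Fau had a probe set with a single symbol. Rpsa, the laminin receptor protein of the small subunit, was at 12.06, 12.22 and 12.22 in wild type and 11.84, 11.53 and 12.31 in knockout (-0.27, SE 0.23), with the same low and high knockout livers as the members. Fau, which carries the small subunit protein eS30, differed by 0.12 (SE 0.21). The paralogs named "like" had 4 tested genes of 6, all with higher estimates on the brightest probe set and none called. Other probe sets of Rps27l differed by -0.025 and -0.026. Rpl22l1, the paralog that RPL22 is known to repress, was at 12.17, 11.89 and 11.79 against 12.36, 12.36 and 12.09, a difference of 0.32 (SE 0.20), on the same side as Rpl22. Rpl3l, the muscle paralog of Rpl3, and Rpl39l were under the minimum.

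Of the translation factors and other proteins of TOP messenger RNAs, 19 were tested, with 10 higher and 9 lower estimates, a median of 0.02 and 0 called. Eef1a1, which delivers aminoacyl-tRNA to the ribosome, read 11.97, 12.49 and 12.55 against 11.70, 11.81 and 12.44, a difference of -0.35 (SE 0.26). Nap1l1, a histone chaperone gene, had the largest difference of the list at 0.52 (SE 0.24), with 10.66, 10.58 and 10.96 against 11.63, 11.26 and 10.86. The list's median deviations by liver were -0.14, -0.01 and 0.09 in wild type and 0.03, -0.08 and 0.10 in knockout. Replicate 3 of each group was again the highest of its group.

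In the mTORC1 and TOP control list 10 genes were tested, 5 with higher and 5 with lower estimates, and 0 were called. Deptor, an inhibitor of mTOR, differed most (-1.05, SE 0.56), at 10.64, 10.20 and 8.71 in wild type and 8.55, 9.79 and 8.07 in knockout, with overlapping groups. Larp1 differed by 0.14 (SE 0.21) and Mtor by -0.29 (SE 0.29). Tsc1, part of the complex that restrains mTORC1, read 9.71, 9.84 and 9.62 against 9.09, 9.45 and 9.52 (-0.37, SE 0.20), lower in every knockout liver. The 3 tested S6 kinases had lower estimates, from -0.52 for Rps6kb2 to -0.06 for Rps6kc1. The 11 chaperones and importers of ribosomal proteins had a median of 0.01, and the 6 transcription factors a median of 0, with 0 called in either list. Elk4 differed by -0.19 (SE 0.22) and Myc, near the minimum, by -0.15 (SE 0.28).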

How the data were processed

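The authors deposited 1 log2 expression value per probe set and array. The submitters' processing notes name GCRMA 2.20.0 and R 2.11.1 without settings. GCRMA corrects background by probe sequence and summarizes probes, and without detection calls low values were not tested against background. Probe sets (22626, of which 20380 have 1 symbol) were named by the platform annotation. Genes with a mean of at least 4 were fitted with lmFit and eBayes (limma 3.58.1, R 4.3.3; 2-sided, Benjamini-Hochberg over 8343 genes, no replicate block, residual df 4). Errors are limma's standard errors or SD over livers. On simulated data for this comparison (8343 genes), the fit recovered 33% of genes changed by 1 log2 unit and 80% of those changed by 2. Arrays give no counting depth; their number limits precision.

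Members, lists and the rule for named genes were chosen with earlier results of these data known. The rule took the reported targets, S6, stalk, 5S and anemia genes, the 4 smallest p in each direction, the 3 brightest, dimmest and most spread, and genes whose probe sets differ by over 0.5. Other members and list genes were named after their values were seen. Alternatives were other filters, probe set rules, normalizations and variance settings, a replicate block and leaving out each array.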

Additional observations from a re-analysis of the deposited data

How the results depend on the processing

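With array weights 12 members were called, where 21% of all tested genes were. At an unadjusted p under 0.05 there were 17 members, where 39.2% of all tested genes were past that p. Equal weights gave 0 and 0, and the cause was not tested. Members at an unadjusted p under 0.05 numbered 1 (Rps7) with a trended, robust prior (6.26% of all tested genes) and 0 to 4 without 1 array (1 without knockout replicate 1, 4.42% of all tested genes, and 4 without knockout replicate 3, 16.6%). No other alternative called a member, and the smallest member adjusted p outside array weights was 0.265. Without 1 array the small subunit median lay between -0.088 and 0.066 and the large between -0.255 and -0.009. Under these and all other alternatives both moved by less than the spread of array medians (SD 0.127 and 0.186). Among 22 named genes, 304 of 325 alternative values kept direction and side of the threshold and 13 changed sign. Rps24 was 0.013 with the mean of probe sets and 0.273 without shared probe sets, where Rpl35 was 0.122 and Rps9 -0.223. Rps29 was 0.011 under quantile normalization. With array weights Rpl11 was -0.033 and Rps9 -0.234. Without 1 array Rps9 lay between -0.227 and 0.242, Rps25 between -0.116 and 0.388 and Rps27 between -0.021 and 0.247. Sizes also moved with single arrays: without knockout replicate 2 Rplp2 was -0.012, Rpl12 -0.005, Rpl35 -0.054, Rpl38 -0.16 and Rps26 -0.137, without knockout replicate 3 Rplp2 was -0.435 and Rps26 -0.573, and without wild-type replicate 2 Rps6 was 0.243. With the mean of probe sets Rps10 was 0.022 and Rps6 0.125. The Rps6 mean took in a probe set with a mean of 2.06, under the minimum of 4. The replicate block left the medians at 0.004 and -0.136 and called 0 members; the numbers were not taken to pair the samples, since deviations of equal numbers correlated at -0.089, -0.091 and -0.194 across genes. Each wild-type liver correlated best with a knockout liver of another number (0.192, 0.315 and 0.259), for which the labels give no basis.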
